A study of Mus musculus with 12 samples.

Results

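The genes described here encode proteins of the lipid droplet and of lipolysis: G0s2, Plin2, Plin4, Plin5, Cidec, Cideb, Pnpla2, Pnpla3, Fitm2 and Lipe. They are 10 of the 55487 gene identifiers counted in each library. The list was given by symbol, and its genes were chosen from earlier results of the same libraries, by their normalised counts across the 4 groups. The fold changes and adjusted p-values of these genes therefore describe where each stands in a fit over all genes, and are no independent evidence that the list responds. All 10 symbols matched 1 identifier each, and all 10 passed the filter on low counts, among 13535 genes tested.

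Messenger RNA was measured in primary hepatocytes from mouse liver, kept in culture, in 4 groups of 3 libraries. Control cells received no agent. The FAC group received FAC, letters that the labels leave unexpanded. The Lip-1+FAC group was pretreated on day 2 of culture with liproxstatin-1, which scavenges lipid reactive oxygen species, and the MT+FAC group with Mito-TEMPO, which scavenges mitochondrial ones, before FAC was added. As there was no group with a scavenger but without FAC, the scavengers' own effect on these genes cannot be told apart from their effect on FAC-treated cells. Strain, age, doses and durations are not given in the sources used here, nor whether replicates were separate animals or cultures. The p-values therefore measure only the spread between these samples, which may be technical.

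Hepatocytes store triglyceride in droplets that bud from the endoplasmic reticulum, a step that needs Fitm2. Perilipins (Plin genes) coat the droplet surface, and the CIDE proteins (Cidec, Cideb) join droplets or move lipid between them. Lipolysis starts with adipose triglyceride lipase, the product of Pnpla2, which is activated by Abhd5 and inhibited by G0s2 and Hilpda. Hormone-sensitive lipase (Lipe) and monoglyceride lipase (Mgll) act on the products, while lysosomal acid lipase (Lipa) degrades droplet lipid by another route.

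Libraries held 22991598 to 52529278 reads assigned to genes. The deepest was replicate 2 of the FAC group, whose deposited name carries the unexplained mark "comb", and the others reached at most 31683376 reads. Of the reads listed per library 78% to 79.8% were assigned to genes in control, 75.8% to 77.8% with FAC alone, 80.4% to 81.2% with Lip-1+FAC and 80.5% to 80.7% with MT+FAC. Mitochondrial genes took 0.954% to 1.21%, 1.15% to 1.23%, 0.717% to 0.798% and 0.639% to 0.711% of counts in that order, lower in every library of both scavenger groups than in any other. Reads on no gene were 2.92% to 3.14% with FAC alone and 2.27% to 2.56% in the other groups. Hepatocyte markers summed to 19636 to 20273 counts-per-million (CPM, scaled to the effective library size) in control, 18584 to 19108 with FAC alone, 14644 to 15804 with Lip-1+FAC and 15157 to 16589 with MT+FAC. Its members went different ways with FAC alone: Cps1 (group means 1695, 711.4, 1034 and 1060 CPM), Fgb (2662, 2047, 1860 and 1981 CPM) and Tat (71.0, 38.5, 31.0 and 31.1 CPM) had lower means than in control, and Cyp2e1 (334.9, 449.4, 141.8 and 159.4 CPM) and Serpina1c (173.0, 219.3, 77.4 and 65.7 CPM) higher ones, each in the order control, FAC, Lip-1+FAC and MT+FAC. Of 7 adipocyte markers 6 had a mean under 1 CPM, and Adipoq, Lep and Cfd had no count in any library. The sum of the 7 was 4.05 to 4.58 CPM in control, 6.01 to 8.60 with FAC alone, 2.95 to 3.30 with Lip-1+FAC and 3.06 to 4.53 with MT+FAC, nearly all of it Fabp4. Macrophage markers, mostly Cd68, summed in the same order to 227.3 to 259.4, 292.5 to 326.1, 119.6 to 148.96 and 145.6 to 177.7 CPM. Among the other members C1qb (2.58, 2.66, 1.48 and 1.85 CPM), Csf1r (2.73, 3.61, 2.81 and 2.68 CPM) and Cd5l (0.424, 0.887, 0.599 and 0.561 CPM) also had their highest means with FAC alone. Marco (3.29, 3.90, 4.26 and 4.44 CPM) and Adgre1 (0.718, 0.822, 0.897 and 1.20 CPM) had their highest means with the scavengers, and the mean of Clec4f was lowest with FAC alone (0.500 CPM). Cholangiocyte markers summed to 58.6 to 69.0, 98.4 to 123.3, 109.6 to 124.9 and 104.0 to 144.7 CPM, and their members went different ways: the mean of Sox9 was 17.4 CPM in control and 53.4 CPM with FAC alone, and lower than control with both scavengers, and the group means of Krt19 were 3.96, 9.96, 1.58 and 2.70 CPM, while those of Spp1 were 40.7, 43.6, 101.3 and 102.6 CPM, highest with the scavengers. Stellate cell markers summed to 21.2 to 29.0, 30.7 to 39.0, 15.2 to 18.1 and 16.5 to 21.6 CPM. Among them Reln (7.46, 16.1, 4.53 and 5.23 CPM) and Acta2 (9.12, 12.1, 5.06 and 6.45 CPM) were highest with FAC alone, whereas Dcn (3.55, 2.34, 2.61 and 2.42 CPM) and Lrat (0.275, 0.0192, 0.0481 and 0.0313 CPM) were highest in control. Endothelial markers summed to 38.1 to 39.7, 36.8 to 38.1, 29.6 to 30.1 and 29.4 to 33.3 CPM, mostly Stab2 (28.2, 26.5, 17.9 and 19.2 CPM), while Kdr was lowest in control (0.967 CPM) and highest with Lip-1+FAC (1.91 CPM). The part of these library and marker differences in the results was not tested. In bulk RNA, fewer cells of a type and less RNA per cell cannot be told apart.

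With FAC, 2 of the 10 genes were lower than in control, G0s2 and Plin5, and 3 were higher, Fitm2, Plin2 and Pnpla2, while 5 were not called. A gene is called here at an adjusted p under 0.05 in the quasi-likelihood test of edgeR, with Benjamini-Hochberg adjustment over all genes tested. In this comparison 36.6% of all genes were called, 17.5% higher and 19.1% lower, and nothing is read from the count of the 10. Their median log2 fold change was -0.35, against -0.01 for all genes. In Lip-1+FAC against FAC, 4 were called, G0s2 higher and Cidec, Fitm2 and Pnpla2 lower, where 39.9% of all genes were called, 20.7% higher and 19.2% lower. The same 4 genes were called in the same directions in MT+FAC against FAC, where 40.9% of all genes were called, 21.2% higher and 19.7% lower. These comparisons share the 3 FAC libraries, so their values are not independent. Those against control likewise share the 3 control libraries.

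Between the scavengers, 1 of the 10 genes was called, G0s2, higher with MT+FAC, where 1.34% of all genes were called, 0.465% higher and 0.879% lower. Of all calls between the scavengers 34.6% were higher, a share that was 46.7% with upper-quartile scaling and 48.6% with library size alone. It was 17.1% without Lip-1+FAC replicate 1, 51.3% without MT+FAC replicate 1, 22.1% without MT+FAC replicate 2 and 23% without MT+FAC replicate 3. In Lip-1+FAC against control, 5 of the 10 were lower (G0s2, Plin5, Plin4, Cidec and Lipe) and none was higher, where 30.2% of all genes were called, 15.4% higher and 14.8% lower. In MT+FAC against control, 4 were lower (G0s2, Plin5, Cidec and Lipe) and none was higher, where 19.8% of all genes were called, 9.71% higher and 10.1% lower. The median log2 fold change of the 10 against control was -0.70 with Lip-1+FAC and -0.65 with MT+FAC, against -0.02 and 0.00 for all genes.

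**Figure D1:**
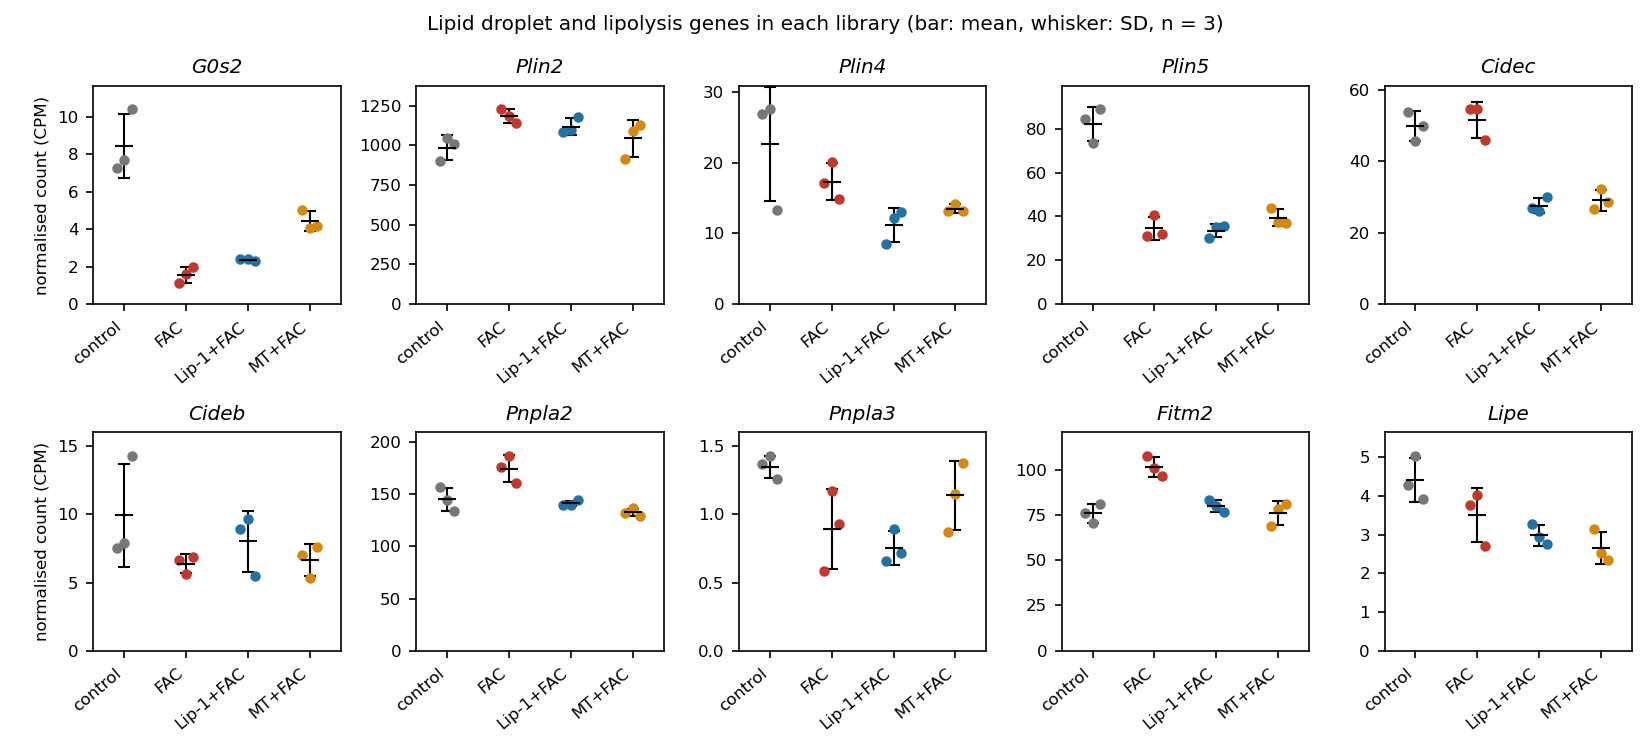
Normalised count (CPM, linear axes that start at 0) of each of the 10 genes in each of the 12 libraries, with the mean and SD of each group of 3. G0s2 was lowest with FAC alone (1.13 to 1.98 CPM) and highest in control (7.26 to 10.4 CPM), and every Cidec value of both scavenger groups lay below those of control and FAC.

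Levels can be compared between genes only per length of exon. In control cells Plin2, the main coat protein of hepatocyte droplets, stood at 280.4 ± 22.1 CPM per kilobase of exon (SD, n = 3). Next came Pnpla2 at 48.0 ± 3.73, Plin5 at 39.4 ± 3.78, Cidec at 26.8 ± 2.24 and Fitm2 at 19.1 ± 1.34 CPM per kilobase. G0s2 at 9.69 ± 1.94, Cideb at 6.68 ± 2.56 and Plin4 at 3.90 ± 1.38 CPM per kilobase were lower. The value of Cideb leaves out the reads it shares with a neighbour (described with that gene). In control the mean of its summed strand columns, with those reads, was 156.8 CPM, against 9.93 CPM without strand. As the shared reads may come from either gene, the place of Cideb in this order is not settled. Pnpla3 at 0.873 ± 0.0532 and Lipe at 0.748 ± 0.0970 CPM per kilobase had the lowest values. That of Lipe also leaves out reads shared with an overlapping gene: the mean of its summed strand columns in control was 8.44 CPM, against 4.40 CPM without strand, so the order of these 2 genes is not settled. The gene with the largest fold change, G0s2, rested on 31 to 263 reads per library.

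The promoters of G0s2 and Plin5, the genes of the list that were lower with FAC, and of Plin2, the most abundant, are shown because these genes moved in opposite directions under 1 treatment. Each sequence is the RefSeq window from 250 bases before to 50 bases after the start of transcription (GRCm38.p6, all on the minus strand, printed 5′ to 3′ along the gene). They lie at chr1:193273139-193273438 for G0s2, chr17:56117499-56117798 for Plin5 and chr4:86670010-86670309 for Plin2. Capitals mark matches, on either strand, to CACGTG (the E-box) or AGGTCA (the hexamer that nuclear receptors such as the PPARs read).
G0s2: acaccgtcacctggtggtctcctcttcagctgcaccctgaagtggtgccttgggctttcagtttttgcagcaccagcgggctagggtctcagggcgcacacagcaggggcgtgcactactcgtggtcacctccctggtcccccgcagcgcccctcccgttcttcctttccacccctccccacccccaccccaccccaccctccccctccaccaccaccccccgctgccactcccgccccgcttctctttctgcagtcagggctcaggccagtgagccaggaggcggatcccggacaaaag
Plin5: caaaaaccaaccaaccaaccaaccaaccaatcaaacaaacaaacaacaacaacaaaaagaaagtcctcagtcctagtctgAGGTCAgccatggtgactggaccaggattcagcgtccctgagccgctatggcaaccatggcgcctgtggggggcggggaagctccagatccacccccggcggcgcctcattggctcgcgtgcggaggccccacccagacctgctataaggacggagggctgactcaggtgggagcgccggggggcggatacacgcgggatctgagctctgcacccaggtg
Plin2: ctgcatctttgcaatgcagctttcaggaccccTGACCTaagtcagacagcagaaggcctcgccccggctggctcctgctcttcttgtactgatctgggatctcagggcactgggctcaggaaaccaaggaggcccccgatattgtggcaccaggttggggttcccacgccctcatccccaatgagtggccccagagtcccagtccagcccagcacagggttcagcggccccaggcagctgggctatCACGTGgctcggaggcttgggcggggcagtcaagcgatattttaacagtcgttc
The G0s2 window held none of the motifs searched. This Plin5 window held 1 AGGTCA match, starting at position -170 from the start site, and the window of another Plin5 start held 1 at position 14. Plin2 held 1 AGGTCA match at -218 and 1 CACGTG match at -4. Of 32851 RefSeq windows of the same length, 16.3% held AGGTCA and 7.15% held CACGTG. The other motifs were TGACNNNGC, the core of the antioxidant response element (12.4% of windows, among them that of Cideb, at -17), and GTAAACA, which FOXO factors bind (3.65% of windows, among them 1 of Lipe, at -119). Another Lipe window held CACGTG at -155. Direct repeats of the nuclear receptor hexamer with spacers of 1 or 4 bases, whose matches overlap those of AGGTCA, occurred in 0.0396% and 0.0152% of windows and in none of the 13 windows of these 10 genes. A match describes letters in a window, not a bound site.

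G0s2 encodes the small protein that binds adipose triglyceride lipase and blocks it. The gene lies on chromosome 1 at 193272161 to 193273217 (minus strand) of GRCm38. Its level was 7.26, 7.69 and 10.4 CPM in the control libraries, 1.13, 1.61 and 1.98 CPM with FAC alone, 2.40, 2.39 and 2.33 CPM with Lip-1+FAC, and 5.03, 4.06 and 4.19 CPM with MT+FAC. The groups did not overlap, and their order was control, MT+FAC, Lip-1+FAC and FAC. Relative to the control mean, the FAC mean was 18.6%, the Lip-1+FAC mean 28.1% and the MT+FAC mean 52.4%. FAC against control was 5.37-fold lower (log2 fold change -2.42, SE 0.206, adjusted p = 9.42e-08). MT+FAC stood 2.82-fold above FAC (log2 fold change 1.49, SE 0.209, adjusted p = 2.33e-05) and 1.90-fold below control (log2 fold change -0.93, SE 0.188, adjusted p = 0.00214). With offsets for GC content and length, the last value was -0.58, adjusted p = 0.0297.

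The G0s2 difference between Lip-1+FAC and FAC was smaller, 1.51-fold (log2 fold change 0.60, SE 0.220, adjusted p = 0.0387). Its call was lost without FAC replicate 1 (0.43, adjusted p = 0.148), without FAC replicate 2 (0.62, adjusted p = 0.0768) and without any 1 of the Lip-1+FAC libraries (0.59 to 0.61, adjusted p = 0.0676 to 0.0818). A fit of the 6 compared libraries alone lost it as well (0.59, adjusted p = 0.0948), and offsets for GC content and length raised the value (0.97, adjusted p = 0.0011). Against control, Lip-1+FAC was 3.55-fold lower (log2 fold change -1.83, SE 0.200, adjusted p = 2.76e-06). Between the scavengers, G0s2 was 1.86-fold higher with MT+FAC (log2 fold change 0.90, SE 0.204, adjusted p = 0.0341). Leaving out any 1 of the 6 libraries of that comparison gave 0.80 to 0.95 and ended the call (adjusted p = 0.0814 to 0.131). G0s2 lies within the span of Lamb3, a laminin subunit gene on the opposite strand, with no exonic overlap. Lamb3, added after its values were seen, moved the other way with FAC, from 1.97 ± 0.382 to 4.24 ± 1.54 CPM (SD, n = 3; log2 fold change 1.08, SE 0.289, adjusted p = 0.00677).

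Pnpla2, the gene of adipose triglyceride lipase, lies on chromosome 7 at 141455198 to 141460743 (plus strand). Its level was 156.6, 144.4 and 134.1 CPM in the control libraries, 176.0, 186.7 and 160.5 CPM with FAC alone, 139.8, 139.7 and 144.01 CPM with Lip-1+FAC, and 131.5, 136.7 and 129.6 CPM with MT+FAC. Each FAC library lay above every other library. FAC against control was 1.20-fold higher, with a log2 fold change of 0.27 (SE 0.0653, adjusted p = 0.0036). The values against FAC were -0.31 (SE 0.0653, adjusted p = 0.00115) for Lip-1+FAC and -0.40 (SE 0.0653, adjusted p = 0.000121) for MT+FAC. With offsets for GC content and length the Lip-1+FAC value was -0.20, adjusted p = 0.0217. Against control neither scavenger group was called, with -0.04 (SE 0.0655, adjusted p = 0.694) for Lip-1+FAC and -0.13 (SE 0.0655, adjusted p = 0.181) for MT+FAC.

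Set against the lipase it inhibits, and per kilobase, G0s2 mRNA was 16.1%, 18.5% and 26.8% of Pnpla2 mRNA in the control libraries. The share was 2.23%, 2.99% and 4.27% with FAC alone, 5.96%, 5.94% and 5.60% with Lip-1+FAC, and 13.3%, 10.3% and 11.2% with MT+FAC. The 4 groups did not overlap in this ratio. The mRNA of the coactivator Abhd5 was 97.1% ± 19.2 of G0s2 mRNA in control, 489.9% ± 148.4 with FAC alone, 409.1% ± 11.4 with Lip-1+FAC, and 211.3% ± 29.7 with MT+FAC (SD, n = 3, per kilobase). Abhd5 itself went from 54.6 ± 2.47 CPM in control to 49.9 ± 2.11 CPM with FAC, which was not called (log2 fold change -0.13, SE 0.0639, adjusted p = 0.121). It was higher with each scavenger than with FAC alone (log2 fold changes 0.41 and 0.34, adjusted p = 5.49e-05 and 0.000368). Abhd5 lies outside the rule for naming genes and was added after its values were seen, and part of it matches an overlapping gene. The ratios describe mRNA and were not tested.

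Hilpda, which encodes the other protein inhibitor of this lipase, was higher with FAC where G0s2 was lower. Its level was 47.4, 40.3 and 41.2 CPM in the control libraries, 79.4, 73.0 and 85.2 CPM with FAC alone, 29.0, 30.7 and 30.4 CPM with Lip-1+FAC, and 29.8, 37.6 and 35.9 CPM with MT+FAC. The FAC libraries lay above all others, and both scavenger groups lay below control. The log2 fold change was 0.88 (SE 0.0902, adjusted p = 7.55e-07) for FAC against control, -1.40 (SE 0.0919, adjusted p = 4.12e-09) for Lip-1+FAC against FAC and -1.20 (SE 0.0909, adjusted p = 3.80e-08) for MT+FAC against FAC. Against control the scavenger groups gave -0.52 (SE 0.0925, adjusted p = 0.000365) and -0.32 (SE 0.0917, adjusted p = 0.02). The former value was -0.27, adjusted p = 0.0403 with offsets for GC content and length. The latter call was lost without control replicate 1 (-0.24, adjusted p = 0.118), without MT+FAC replicate 1 (-0.23, adjusted p = 0.109) and with offsets for GC content and length (-0.06, adjusted p = 0.73). Per kilobase, Hilpda mRNA was 81.1% ± 4.12 of Pnpla2 mRNA in control, 125.3% ± 19.2 with FAC alone, 58.2% ± 1.73 with Lip-1+FAC, and 71.1% ± 7.78 with MT+FAC. In each group Hilpda was the more abundant of these inhibitor mRNAs per kilobase.

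**Figure D2:**
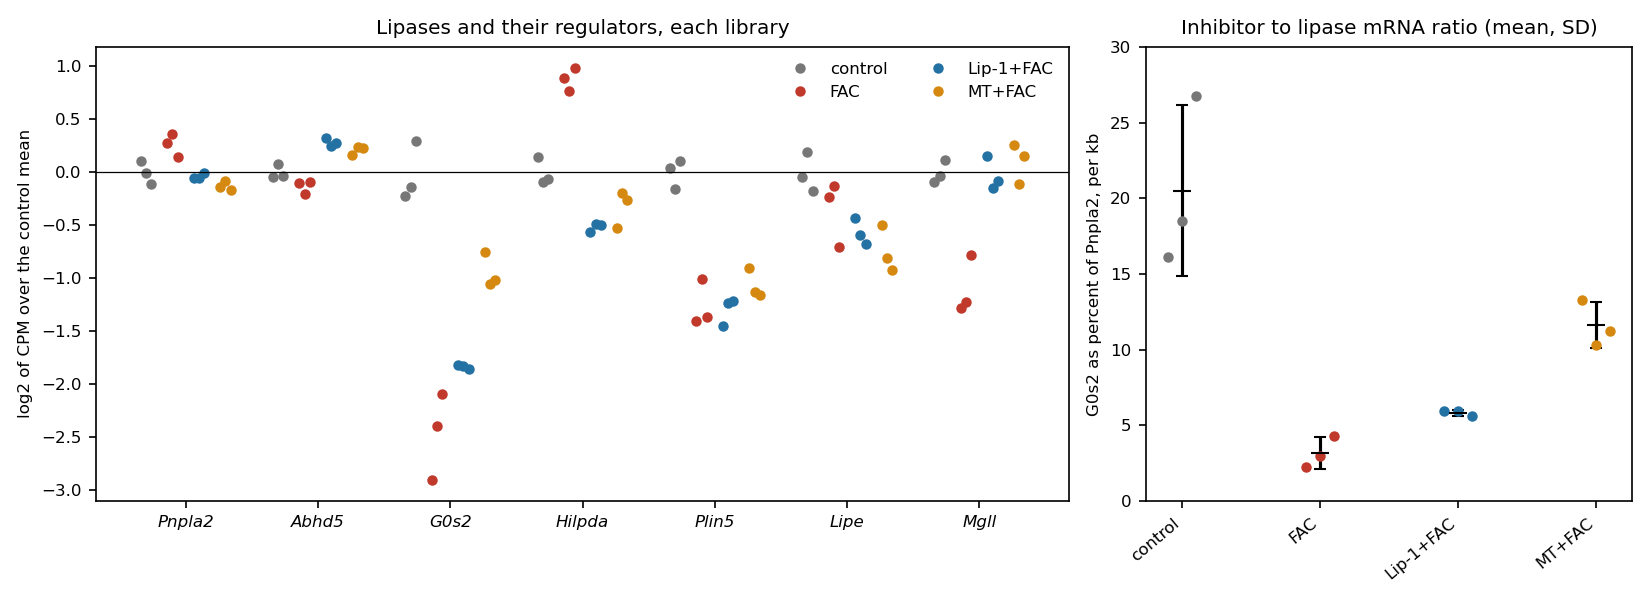
Left, log2 of the CPM of each library over the control mean (y axis) for lipases and their regulators (x axis), coloured by group; right, G0s2 as a percentage of Pnpla2 per kilobase, with the mean and SD of 3 libraries. The FAC points are the lowest of the 4 groups for G0s2 and Mgll and the highest for Pnpla2 and Hilpda, and the ratio is 20.5% ± 5.65 in control, 3.16% ± 1.03 with FAC alone, 5.83% ± 0.202 with Lip-1+FAC, and 11.6% ± 1.52 with MT+FAC.

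Lipe encodes hormone-sensitive lipase, which prefers diglyceride, and lies on chromosome 7 at 25379527 to 25398710 (minus strand). Its level was 4.27, 5.03 and 3.91 CPM in the control libraries, 3.76, 4.02 and 2.71 CPM with FAC alone, 3.27, 2.93 and 2.75 CPM with Lip-1+FAC, and 3.13, 2.52 and 2.33 CPM with MT+FAC. Control and FAC libraries overlapped, and every library of both scavenger groups lay below every control library. Against control the log2 fold change was -0.32 (SE 0.192, adjusted p = 0.209) for FAC, -0.56 (SE 0.198, adjusted p = 0.0399) for Lip-1+FAC and -0.72 (SE 0.198, adjusted p = 0.0157) for MT+FAC. The FAC value was -0.44 to -0.17 with 1 library left out, not called in any of these fits. Of the 6 fits that left out a library, the Lip-1+FAC call was kept only without control replicate 3, and the other 5 gave -0.63 to -0.45 (adjusted p = 0.056 to 0.144). With libraries thinned to the smallest depth it was lost too (-0.46, adjusted p = 0.0965), and likewise with no filter on low counts (-0.55, adjusted p = 0.0766). The MT+FAC call was lost without control replicate 2 (-0.61, adjusted p = 0.0605), MT+FAC replicate 2 (-0.68, adjusted p = 0.06) or MT+FAC replicate 3 (-0.64, adjusted p = 0.068). Against FAC the values were -0.24 (SE 0.197, adjusted p = 0.352) and -0.40 (SE 0.197, adjusted p = 0.115), the latter called without FAC replicate 3 (-0.54, adjusted p = 0.0407). Of its exonic bases 15.6% overlap 4732471J01Rik on the other strand, and reads there are left out of the counts.

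Pnpla3, a droplet-bound relative of Pnpla2, lies on chromosome 15 at 84167837 to 84187236 (plus strand). It had only 16 to 61 reads per library. Its level was 1.37, 1.43 and 1.26 CPM in the control libraries, 0.585, 1.17 and 0.929 CPM with FAC alone, 0.655, 0.894 and 0.719 CPM with Lip-1+FAC, and 0.875, 1.15 and 1.38 CPM with MT+FAC. The control libraries lay above all FAC and Lip-1+FAC libraries. No comparison was called, with log2 fold changes against control of -0.57 (SE 0.326, adjusted p = 0.188) for FAC, -0.83 (SE 0.339, adjusted p = 0.0722) for Lip-1+FAC and -0.26 (SE 0.325, adjusted p = 0.617) for MT+FAC. Leaving out 1 library at a time moved the FAC value between -0.84 (without FAC replicate 2) and -0.34 (without FAC replicate 1), and the MT+FAC value between -0.41 (without MT+FAC replicate 3) and -0.11 (without MT+FAC replicate 1), none of them called. With offsets for GC content and length the MT+FAC value was -0.05, adjusted p = 0.94, and with thinned libraries the FAC and MT+FAC values were -0.36, adjusted p = 0.437 and -0.15, adjusted p = 0.796.

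Counts of other lipid genes are given below list by list, and of all genes tested 17.5% were called higher and 19.1% lower in FAC against control, 20.7% and 19.2% in Lip-1+FAC against FAC, and 21.2% and 19.7% in MT+FAC against FAC. Against control these shares were 15.4% and 14.8% with Lip-1+FAC and 9.71% and 10.1% with MT+FAC. Of 16 other lipases and their regulators, 1 was higher and 5 were lower in FAC against control, with a median log2 fold change of 0.05 against -0.01 for all genes. Mgll, which releases the last fatty acid from glycerol, had the largest fall, from 32.9 ± 2.49 to 15.6 ± 3.11 CPM (log2 fold change -1.08, SE 0.132, adjusted p = 8.85e-06). Each scavenger left 7 of the 16 higher and 6 lower than FAC alone, with medians of 0.07 and 0.04. Mgll stood at 32.6 ± 3.76 CPM with Lip-1+FAC and 35.6 ± 4.60 CPM with MT+FAC, above FAC by log2 fold changes of 1.07 and 1.19, adjusted p = 3.04e-06 for the latter. Against control it was not called (-0.02 and 0.11, adjusted p = 0.939 and 0.584). Lipa stood at 166.2 ± 17.9 CPM in control, 111.1 ± 5.41 CPM with FAC alone, 258.0 ± 22.6 CPM with Lip-1+FAC, and 207.0 ± 18.7 CPM with MT+FAC. Its log2 fold change was -0.58 in FAC against control, and with the scavengers 1.22 and 0.90 against FAC and 0.63 and 0.32 against control, all called. The last of these calls was lost without control replicate 1 (0.30), control replicate 3 (0.26) or MT+FAC replicate 1 (0.23).

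Ces1d, a carboxylesterase of the hepatocyte endoplasmic reticulum that hydrolyses stored triglyceride, had the largest fall of this list against control with each scavenger. It stood at 57.8 ± 8.79 CPM in control, 64.7 ± 4.33 CPM with FAC alone, 33.7 ± 3.55 CPM with Lip-1+FAC, and 34.7 ± 0.372 CPM with MT+FAC. Its log2 fold changes against control were -0.78, SE 0.0996, adjusted p = 1.39e-05 for Lip-1+FAC and -0.73, SE 0.0992, adjusted p = 7.06e-05 for MT+FAC, and FAC against control was not called (0.16, adjusted p = 0.205). It was called without control replicate 1 (0.29, adjusted p = 0.0245) and with offsets for GC content and length (0.28, adjusted p = 0.0276). Over all fits that left out 1 library, this FAC value was 0.07 to 0.29 (adjusted p = 0.0245 to 0.619). Ces1g, a related esterase, had the largest rise in Lip-1+FAC against control (0.65, adjusted p = 0.00626). Of the list, 5 were higher and 8 lower than control with Lip-1+FAC, and 3 higher and 7 lower with MT+FAC.

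Plin5, the coat protein that tethers droplets to mitochondria and binds both the lipase and its coactivator, lies on chromosome 17 at 56111601 to 56117596 (minus strand). Its level was 84.3, 73.5 and 88.8 CPM in the control libraries, 31.1, 40.8 and 32.0 CPM with FAC alone, 30.1, 35.1 and 35.5 CPM with Lip-1+FAC, and 43.9, 37.7 and 36.9 CPM with MT+FAC. All control libraries lay above all others, and the FAC libraries overlapped with both scavenger groups. Against control the log2 fold change was -1.24 (SE 0.109, adjusted p = 2.42e-07) for FAC, -1.29 (SE 0.110, adjusted p = 2.48e-07) for Lip-1+FAC and -1.06 (SE 0.108, adjusted p = 6.92e-06) for MT+FAC, or 2.36-fold, 2.45-fold and 2.08-fold lower. Against FAC, Plin5 was not called with either scavenger, at -0.05 (SE 0.110, adjusted p = 0.731) and 0.18 (SE 0.109, adjusted p = 0.195). In MT+FAC against FAC it was called without FAC replicate 2 (0.32, adjusted p = 0.0232) and with offsets for GC content and length (0.33, adjusted p = 0.0116). All fits of this comparison that left out 1 library gave 0.09 to 0.32 (adjusted p = 0.0232 to 0.564).

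Plin2 lies on chromosome 4 at 86648386 to 86670060 (minus strand). Its level was 898.1, 1048 and 1008 CPM in the control libraries, 1226, 1187 and 1142 CPM with FAC alone, 1081, 1095 and 1178 CPM with Lip-1+FAC, and 911.5, 1087 and 1130 CPM with MT+FAC. FAC against control was 1.20-fold higher with no overlap (log2 fold change 0.27, SE 0.0749, adjusted p = 0.00947), a call that was lost without control replicate 1 (0.21, adjusted p = 0.0605). In the order of means, FAC, Lip-1+FAC, MT+FAC and control, each group overlapped with the next. Against FAC the log2 fold change was -0.08 (SE 0.0748, adjusted p = 0.39) for Lip-1+FAC and -0.18 (SE 0.0749, adjusted p = 0.0572) for MT+FAC. The latter was called without MT+FAC replicate 2 (-0.23, adjusted p = 0.0473) or replicate 3 (-0.24, adjusted p = 0.0296), and with all libraries under no filter on low counts (-0.18, adjusted p = 0.0103), a mean of at least 5 CPM (-0.20, adjusted p = 0.0418), summed strand columns (-0.21, adjusted p = 0.0384) or offsets for GC content and length (-0.25, adjusted p = 0.0107). Over all fits that left out 1 library, the MT+FAC value was -0.24 to -0.10 (adjusted p = 0.0296 to 0.278). Lip-1+FAC against control was 0.18 (SE 0.0749, adjusted p = 0.0748), and was called with no filter (0.19, adjusted p = 0.00518), with those offsets (0.26, adjusted p = 0.0123) or without control replicate 2 (0.23, adjusted p = 0.0427). Per kilobase, Plin5 mRNA was 14.1% ± 2.08 of Plin2 mRNA in control, 4.92% ± 0.776 with FAC alone, 5.05% ± 0.360 with Lip-1+FAC, and 6.48% ± 1.41 with MT+FAC (SD, n = 3).

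Plin4, a perilipin known mainly from adipocytes and muscle, is the neighbour of Plin5, 1797 bases away, on chromosome 17 at 56100591 to 56109803 (minus strand). Its level was 26.9, 27.5 and 13.3 CPM in the control libraries, 17.1, 20.1 and 14.9 CPM with FAC alone, 8.48, 12.1 and 13.0 CPM with Lip-1+FAC, and 13.1, 14.2 and 13.2 CPM with MT+FAC. Control replicate 3 stood below the other control libraries, near the MT+FAC values, and the FAC libraries lay above those of Lip-1+FAC. Against control the log2 fold change was -0.37 (SE 0.242, adjusted p = 0.261) for FAC, -1.01 (SE 0.250, adjusted p = 0.0103) for Lip-1+FAC and -0.74 (SE 0.246, adjusted p = 0.0564) for MT+FAC. Without control replicate 3 it was called for FAC (-0.64, adjusted p = 0.00266) and MT+FAC (-1.01, adjusted p = 0.00017). Over all fits that left out 1 library, the FAC value was -0.64 to -0.20 (adjusted p = 0.00266 to 0.603). With all libraries the MT+FAC value was called with a mean of at least 5 CPM (-0.75, adjusted p = 0.0378), DESeq2 (-0.73, adjusted p = 0.0411), summed strand columns (-0.73, adjusted p = 0.0485), thinned libraries (-0.73, adjusted p = 0.0477) and offsets for GC content and length (-0.78, adjusted p = 0.0361). Against FAC it was -0.64 (SE 0.250, adjusted p = 0.0622) for Lip-1+FAC and -0.37 (SE 0.245, adjusted p = 0.261) for MT+FAC, while a fit of the compared libraries alone called both (-0.65, adjusted p = 0.00868 and -0.37, adjusted p = 0.0229). The Lip-1+FAC value was also called with a mean of at least 5 CPM (-0.66, adjusted p = 0.042) and with summed strand columns (-0.65, adjusted p = 0.0496).

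Of 12 other genes of the droplet surface 11 were tested. In FAC against control 3 were higher and 4 lower (against 17.5% and 19.1% of all genes), with a median log2 fold change of -0.08. The genes named next are ranked among those with a mean of at least 1 CPM, which leaves out Cidea (described below). Acsl3, an acyl-CoA synthetase of nascent droplets, had the largest rise, from 48.4 ± 1.73 to 67.2 ± 1.69 CPM (0.47, SE 0.0617, adjusted p = 1.15e-05). Ldah, a droplet-bound hydrolase, had the largest fall, from 51.8 ± 4.06 to 32.3 ± 2.90 CPM (-0.69, SE 0.0829, adjusted p = 5.09e-06). In Lip-1+FAC against FAC 4 were higher and 2 lower, led by Hsd17b13, a hepatocyte droplet enzyme (0.58, adjusted p = 1.29e-06), and Aup1 (-0.27, adjusted p = 0.00211). In MT+FAC against FAC 3 were higher and 4 lower, led by Ldah (0.58, adjusted p = 3.11e-05) and Aup1 (-0.24, adjusted p = 0.0049). With offsets for GC content and length both calls of Aup1 were lost (-0.10, adjusted p = 0.244, and -0.16, adjusted p = 0.0624). Against control, 4 were higher and 2 lower with Lip-1+FAC, and 1 higher and 2 lower with MT+FAC, led by Acsl3 (0.53 and 0.25) and Rab7 (-0.35 and -0.45). Rab7 counts are less certain, as Rab7-ps1 matches 622 bases of it at 98.4% identity.

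Cidea, the CIDE protein of brown fat, has a mean under 1 CPM, lies outside the naming rule and was singled out after its values were seen. It stood at 0.308 ± 0.0799 CPM in control, 0.774 ± 0.0924 CPM with FAC alone, 0.114 ± 0.0720 CPM with Lip-1+FAC, and 0.213 ± 0.0522 CPM with MT+FAC. Its log2 fold change was 1.31 in FAC against control (adjusted p = 0.0326), and -2.71 and -1.85 with the scavengers against FAC (adjusted p = 0.00056 and 0.00491). The call against control was lost without any 1 of the 6 libraries compared (adjusted p = 0.0503 to 0.129) and with no filter on low counts (1.33, adjusted p = 0.117).

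Cidec encodes the protein that enlarges droplets by joining them, and lies on chromosome 6 at 113424634 to 113435760 (minus strand). Its level was 53.9, 45.6 and 49.9 CPM in the control libraries, 54.5, 54.5 and 45.8 CPM with FAC alone, 26.9, 26.0 and 30.0 CPM with Lip-1+FAC, and 26.5, 32.3 and 28.5 CPM with MT+FAC. Control and FAC overlapped, the scavenger groups overlapped, and every library of the former pair lay above every library of the latter. FAC against control was not called (log2 fold change 0.05, SE 0.0937, adjusted p = 0.696). Against FAC the values were -0.90 (SE 0.0959, adjusted p = 9.51e-07) for Lip-1+FAC and -0.83 (SE 0.0954, adjusted p = 2.98e-06) for MT+FAC. Against control they were -0.85 (SE 0.0965, adjusted p = 4.09e-06) and -0.77 (SE 0.0959, adjusted p = 2.87e-05). Between the scavengers Cidec was not called (0.08, SE 0.0973, adjusted p = 0.818). Per kilobase, Cidec mRNA was 9.65% ± 1.58 of Plin2 mRNA in control, 8.23% ± 0.570 with FAC alone, 4.68% ± 0.164 with Lip-1+FAC, and 5.30% ± 0.459 with MT+FAC.

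Cideb, the CIDE protein of hepatocytes that takes part in loading lipoproteins, gave values that depend on how reads are counted. It lies on chromosome 14 at 55754050 to 55758458 (minus strand), and 76.3% of its exonic bases also belong to Nop9, a ribosome biogenesis gene on the opposite strand. A count without strand drops every read that falls on both genes. What remained was 7.56, 7.92 and 14.3 CPM in the control libraries, 6.69, 5.61 and 6.86 CPM with FAC alone and 8.95, 9.65 and 5.46 CPM with Lip-1+FAC, and it ranged from 5.37 to 7.64 CPM with MT+FAC. Control replicate 3 stood above the other control libraries, and FAC against control was not called (log2 fold change -0.65, SE 0.255, adjusted p = 0.0628), though it was without control replicate 1 (-0.81, adjusted p = 0.0323) or replicate 2 (-0.79, adjusted p = 0.0416). Without control replicate 3 the value was -0.29, adjusted p = 0.317. With all libraries it was called with no filter on low counts (-0.63, adjusted p = 0.000536), DESeq2 (-0.62, adjusted p = 0.0301) and offsets for GC content and length (-0.55, adjusted p = 0.0488). Against FAC the scavenger groups gave 0.34 (SE 0.256, adjusted p = 0.309) and 0.07 (SE 0.258, adjusted p = 0.861). Against control they gave -0.30 (SE 0.253, adjusted p = 0.398) and -0.58 (SE 0.256, adjusted p = 0.129), the latter called with no filter on low counts (-0.56, adjusted p = 0.00534). With 1 library left out these 4 values were 0.19 to 0.56, -0.04 to 0.19, -0.46 to 0.06 and -0.74 to -0.22, none of them called.

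Reads on both genes were recovered by summing the strand-specific columns, which give such a read to Cideb in 1 column and to Nop9 in the other. Nop9 is named for this reason and was added after its values were seen. These reads numbered 141.5, 151.7 and 147.5 CPM in the control libraries, 95.9, 92.2 and 86.0 CPM with FAC alone, 149.5, 137.3 and 135.3 CPM with Lip-1+FAC, and 144.9, 139.2 and 149.1 CPM with MT+FAC. Each FAC library lay below every other library, and the other groups overlapped. With these reads included, Cideb had log2 fold changes of -0.67 (SE 0.0653, adjusted p = 5.52e-07) for FAC against control, 0.60 (SE 0.0652, adjusted p = 1.38e-06) for Lip-1+FAC against FAC and 0.61 (SE 0.0652, adjusted p = 1.84e-06) for MT+FAC against FAC. The reads on Nop9 alone stood at 74.4 ± 4.75 CPM in control, 71.1 ± 1.01 CPM with FAC alone, 72.8 ± 1.85 CPM with Lip-1+FAC, and 75.9 ± 1.21 CPM with MT+FAC (SD, n = 3), and FAC against control was not called (-0.06, SE 0.0605, adjusted p = 0.434). With the shared reads included, Nop9 had -0.44 (SE 0.0559, adjusted p = 1.16e-05) for FAC against control, 0.39 (SE 0.0559, adjusted p = 2.74e-05) for Lip-1+FAC against FAC and 0.42 (SE 0.0558, adjusted p = 1.74e-05) for MT+FAC against FAC, all called. Without strand the shared reads of Cideb and Nop9 cannot be told apart, so the difference is that of their overlap, not of Cideb alone. Summing the columns also raised the level of Lipe, from 4.40 ± 0.571 to 8.44 ± 0.848 CPM in control.

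**Figure D3:**
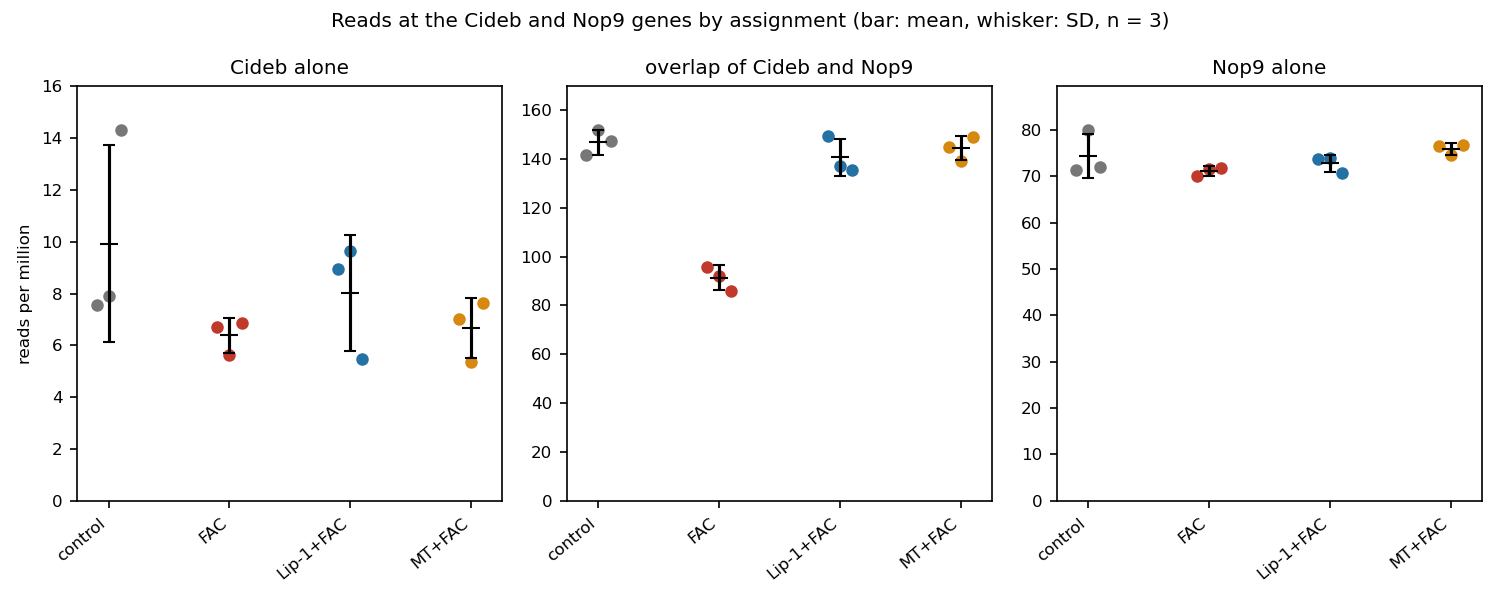
Normalised reads (CPM, y axes that start at 0, each panel with its own scale) on Cideb alone, on the overlap of Cideb and Nop9, and on Nop9 alone, in each of the 12 libraries with the mean and SD of each group of 3. Every FAC point of the overlap lies below every point of the other groups, while the groups lie close together for Nop9 alone.

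Fitm2, which encodes the membrane protein that lets droplets bud from the endoplasmic reticulum, lies on chromosome 2 at 163466379 to 163472629 (minus strand). Its level was 76.0, 70.3 and 81.0 CPM in the control libraries, 107.6, 100.8 and 96.7 CPM with FAC alone, 83.3, 80.1 and 76.7 CPM with Lip-1+FAC, and 68.8, 78.3 and 81.0 CPM with MT+FAC. Every FAC library lay above all others, and the other groups overlapped. The log2 fold change was 0.42 (SE 0.0732, adjusted p = 0.000193) for FAC against control, -0.35 (SE 0.0730, adjusted p = 0.00107) for Lip-1+FAC against FAC and -0.42 (SE 0.0730, adjusted p = 0.000198) for MT+FAC against FAC. Against control the scavenger groups were not called, at 0.08 (SE 0.0736, adjusted p = 0.445) and 0.00 (SE 0.0736, adjusted p = 0.974). Pnpla2 had these same calls. Part of Fitm2 overlaps 2310001K24Rik, and reads on both are left out of its count.

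Of 9 other genes of droplet formation 7 were tested. In FAC against control the 1 called gene was Esyt1, an endoplasmic reticulum tether (log2 fold change -0.22, SE 0.0830, adjusted p = 0.0484). That call was lost under 6 of 12 other settings, without control replicate 2 (-0.11, adjusted p = 0.305) and without any 1 FAC library (-0.23 to -0.19). With the scavengers 3 and 4 of 7 were higher than with FAC alone and none was lower, with median log2 fold changes of 0.30 and 0.30. Of all genes 20.7% and 21.2% were higher in these comparisons, and 19.2% and 19.7% lower. The largest rises were those of Pcyt1a, an enzyme of phosphatidylcholine synthesis, with Lip-1+FAC (0.41, SE 0.0507, adjusted p = 5.04e-06) and of Esyt1 with MT+FAC (0.44, SE 0.0825, adjusted p = 0.000431). Against control 2 of 7 were higher with each scavenger and none was lower, led by Vps13c, a lipid transfer protein (0.82, adjusted p = 0.0036 with Lip-1+FAC, and 0.75, adjusted p = 0.0109 with MT+FAC). The latter call was lost without MT+FAC replicate 1 (0.65, adjusted p = 0.0586) and with offsets for GC content and length (0.52, adjusted p = 0.0566).

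**Figure D4:**
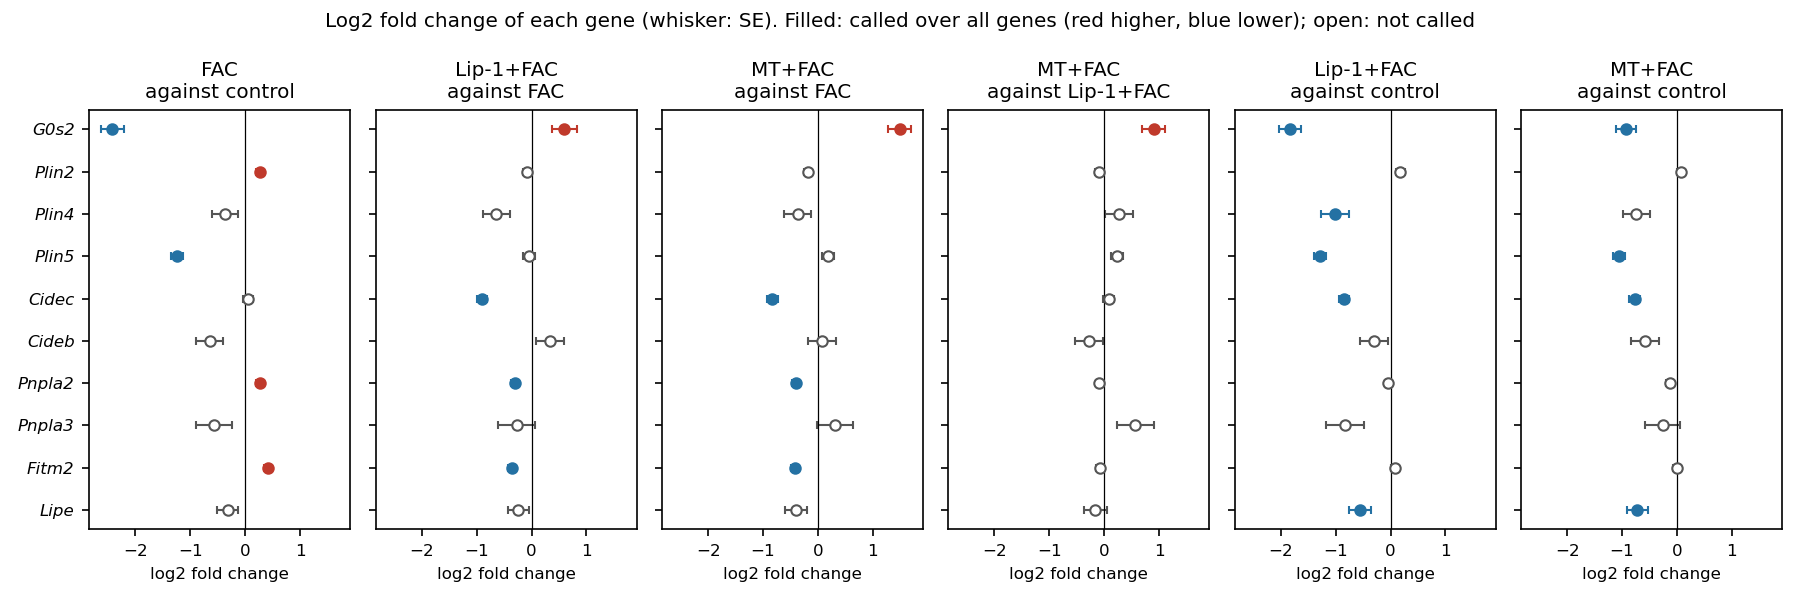
Log2 fold change (x axis) of each of the 10 genes (y axis) in 6 comparisons, with whiskers of 1 SE, filled where called over all genes. G0s2 and Plin5 are filled left of 0 in all 3 comparisons with control. Plin4, Cideb, Pnpla3 and Lipe also lie left of 0 in all 3, but are not filled in all of them. G0s2 is the single filled point between the scavengers (0.90).

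Other genes of lipid handling were counted in 8 lists, and 103 of their 107 genes were tested. These lists were chosen with earlier results known and were not matched to all genes by level, so nothing is read from their counts. In FAC against control 49 of the 103 were called, 13 higher and 36 lower (47.6% of the 103 against 36.6% of all genes), with a median log2 fold change of -0.15. The higher calls were 12.6% of the 103 against 17.5% of all genes, and the lower ones 35% against 19.1%. In Lip-1+FAC against FAC 64 were called, 41 higher and 23 lower (62.1% of the 103 against 39.9% of all genes), and in MT+FAC against FAC 62, 38 higher and 24 lower (60.2% of the 103 against 40.9% of all genes). The higher calls were 39.8% and 36.9% of the 103 against 20.7% and 21.2% of all genes. The lower calls were 22.3% and 23.3% against 19.2% and 19.7%. Against control 55 were called with Lip-1+FAC, 27 higher and 28 lower (53.4% of the 103 against 30.2% of all genes), and 40 with MT+FAC, 15 higher and 25 lower (38.8% of the 103 against 19.8% of all genes). The higher calls were 26.2% and 14.6% of the 103 against 15.4% and 9.71% of all genes. The lower calls were 27.2% and 24.3% against 14.8% and 10.1%. Aup1, Pcyt1a, Gpat3, Slc27a2 and Cebpb overlap another annotated gene in part, and their counts are less certain. Between the scavengers 3 were called (2.91% of the 103 against 1.34% of all genes). Angptl4, which encodes a secreted inhibitor of lipoprotein lipase, stood at 123.9 ± 0.954 CPM with MT+FAC and 80.8 ± 1.51 CPM with Lip-1+FAC (0.62, SE 0.0632, adjusted p = 5.72e-05) and was called in every alternative run. Acsl3 (-0.28, adjusted p = 0.0309) and Pnpla8, a calcium-independent phospholipase (-0.25, adjusted p = 0.0337), were lower with MT+FAC. Each of these lower calls was lost in 5 of 6 fits that left out a library. That of Acsl3 was kept without MT+FAC replicate 2, and that of Pnpla8 without Lip-1+FAC replicate 1, with values of -0.30 to -0.25 and -0.26 to -0.20 in the others. Offsets for GC content and length ended both (-0.23, adjusted p = 0.059, and -0.17, adjusted p = 0.166), and upper-quartile scaling (-0.23, adjusted p = 0.0525) or library size alone (-0.23, adjusted p = 0.0548) ended that of Pnpla8.

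Of 14 triglyceride and sterol ester synthesis genes tested, FAC left 2 higher and 6 lower than control (against 17.5% and 19.1% of all genes), with a median log2 fold change of -0.18. Lpin1, a phosphatidate phosphatase, had the largest fall (-0.93, SE 0.0862, adjusted p = 3.70e-07) and Gpat3, an acyltransferase, the largest rise (0.43, SE 0.0947, adjusted p = 0.0017). With the scavengers 6 and 4 of 14 were higher than with FAC alone and none was lower, where 20.7% and 21.2% of all genes were higher and 19.2% and 19.7% lower. Dgat2, which makes triglyceride, led with Lip-1+FAC, going from 344.8 ± 19.3 to 505.5 ± 9.35 CPM (0.55, SE 0.0571, adjusted p = 7.26e-07), and Agpat2, which makes phosphatidate, with MT+FAC, from 75.7 ± 6.57 to 104.5 ± 3.36 CPM (0.46, SE 0.0874, adjusted p = 0.000444). Against control, 3 were higher and 3 lower with Lip-1+FAC, led by Gpat3 (0.77) and Gpam (-0.60). With MT+FAC 1 was higher, Gpat3 (0.42), and 2 were lower, led by Lpin1 (-0.75).

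Among 14 genes of fatty acid uptake and activation, FAC left 2 higher and 4 lower than control (against 17.5% and 19.1% of all genes). They were led by the transporters Slc27a1 (0.81, SE 0.122, adjusted p = 5.12e-05) and Slc27a2 (-0.84, SE 0.0682, adjusted p = 5.33e-08). Each scavenger left 5 higher and 5 lower than FAC alone, where 20.7% and 21.2% of all genes were higher and 19.2% and 19.7% lower. The fatty acid receptor Cd36 had the largest rise, from 7.48 ± 0.599 CPM to 28.7 ± 0.966 CPM with Lip-1+FAC (1.94, adjusted p = 3.25e-07) and 25.9 ± 3.41 CPM with MT+FAC (1.79, adjusted p = 9.78e-07). It was higher than in control as well (1.37, adjusted p = 1.46e-05 and 1.23, adjusted p = 0.000114). Among the fatty acid binding proteins, Fabp5 led the falls with Lip-1+FAC against FAC (-1.37, adjusted p = 1.26e-05) and Fabp1 with MT+FAC (-1.42, adjusted p = 0.000731). Fabp1 also led the falls against control (-1.37, adjusted p = 0.00121 and -1.68, adjusted p = 0.000836). Fabp5 has near-identical copies, Gm6166 and Gm14328, and its counts are less certain.

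Of 8 genes that load and secrete lipoproteins, FAC left 1 higher and 3 lower than control (against 17.5% and 19.1% of all genes). Apob, the structural protein of the particle, went from 720.3 ± 99.5 to 949.2 ± 124.8 CPM (0.40, SE 0.105, adjusted p = 0.00898), a call that was lost with offsets for GC content and length (0.20, adjusted p = 0.22). Tm6sf2, which helps lipid reach the particle, had the largest fall, from 33.9 to 18.7 CPM (-0.86, SE 0.0924, adjusted p = 1.33e-06). Each scavenger left 5 of 8 higher than FAC alone and none lower, where 20.7% and 21.2% of all genes were higher and 19.2% and 19.7% lower. Tm6sf2 led these rises (0.91, adjusted p = 5.54e-07 and 0.96, adjusted p = 4.51e-07). It was not called against control (0.05 and 0.10, adjusted p = 0.704 and 0.482) except with offsets for GC content and length (0.26, adjusted p = 0.0281, and 0.25, adjusted p = 0.0478). Against control, Apob led the rises (0.55, adjusted p = 0.00142 and 0.53, adjusted p = 0.00335), and both calls were lost with the same offsets (0.31 and 0.35). Sar1b, a coat protein of vesicles that leave the endoplasmic reticulum, was the gene called lower (-0.17, adjusted p = 0.0295 and -0.22, adjusted p = 0.00926), with values of 0.00 and 0.04 under those offsets. Its Lip-1+FAC call was lost without control replicate 1 (-0.16), control replicate 3 (-0.15), Lip-1+FAC replicate 2 (-0.17) or Lip-1+FAC replicate 3 (-0.14), with no filter on low counts (-0.15) and with only the compared libraries (-0.16), and its MT+FAC call without MT+FAC replicate 2 (-0.19).

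Several droplet genes respond to the nuclear receptor PPARA. Of 15 genes known to answer it FAC left 1 higher and 8 lower than control (against 17.5% and 19.1% of all genes), with a median log2 fold change of -0.45. Pdk4, a brake on glucose oxidation, was the 1 called higher with FAC (0.97, adjusted p = 0.000119 in FAC against control, -0.87 with Lip-1+FAC, and -1.16, adjusted p = 2.22e-05 with MT+FAC against FAC). Each scavenger left 7 of 15 higher and 4 lower than FAC alone, where 20.7% and 21.2% of all genes were higher and 19.2% and 19.7% lower. The fatty acid hydroxylase Cyp4a10 led the falls with Lip-1+FAC (-0.95, adjusted p = 3.28e-05). Cyp4a10 has near-identical copies, Cyp4a31 and Cyp4a32, and its counts are less certain. Against control, Vnn1, a pantetheinase, led the rises (0.62, adjusted p = 0.000883 and 0.59, adjusted p = 0.00268), while Angptl4 led the falls with Lip-1+FAC (-0.97, adjusted p = 5.00e-09) and Cyp4a10 with MT+FAC (-0.81, adjusted p = 0.000632).

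Of 18 transcription regulators of droplet genes, FAC left 3 higher and 5 lower than control (against 17.5% and 19.1% of all genes). Ppard, a relative of PPARA, had the largest rise, from 1.34 ± 0.300 to 2.78 ± 0.542 CPM (1.05, SE 0.237, adjusted p = 0.00206), and the bile acid receptor Nr1h4 the largest fall, from 77.1 ± 5.28 to 27.5 ± 0.721 CPM (-1.49, SE 0.0713, adjusted p = 1.12e-10). Nr1h4 led the rises with each scavenger against FAC (0.93, adjusted p = 2.56e-08 and 0.91, adjusted p = 5.43e-08). Cebpb, a factor of fat cell differentiation, led the falls (-0.91, adjusted p = 0.0257 and -0.92, adjusted p = 0.0236). Both calls of Cebpb were lost without FAC replicate 2 (-0.64 and -0.66). Leaving out Lip-1+FAC replicate 2 (-0.93) or 3 (-0.73) ended the former, and leaving out any 1 MT+FAC library ended the latter (-0.98 to -0.86). Both were lost with no filter on low counts (-0.91, adjusted p = 0.0577, and -0.92, adjusted p = 0.0553), and the former also with only the compared libraries (-0.92, adjusted p = 0.0596) and with offsets for GC content and length (-0.52, adjusted p = 0.066), which gave -0.58, adjusted p = 0.044 for the latter. Against control, Pparg, which drives droplet genes in fatty liver, led the rises with each scavenger (1.03, adjusted p = 4.62e-05 and 0.75, adjusted p = 0.00183), and it was higher with FAC alone (0.89, adjusted p = 0.00013). Among genes with a mean of at least 1 CPM, Ppara led the falls (-0.90, adjusted p = 7.49e-06 and -0.61, adjusted p = 0.000706) and was not called with FAC alone (-0.21, adjusted p = 0.13). Nr0b2, with a mean under 1 CPM, was also called lower with Lip-1+FAC, at 0.335 ± 0.131 CPM against 0.873 ± 0.272 CPM in control.

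**Figure D5:**
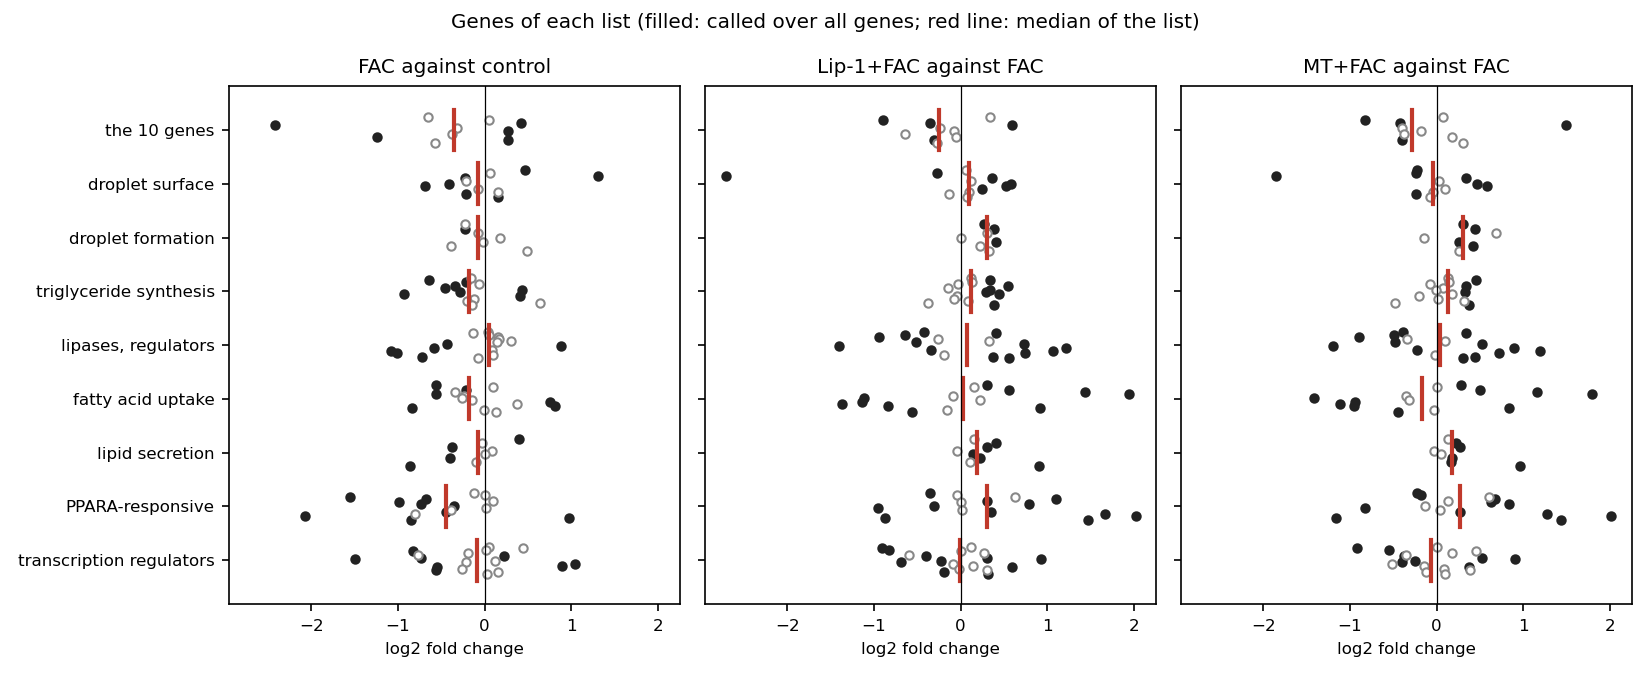
Log2 fold change (x axis) of each tested gene of the 10 and of 8 lists of other lipid genes (y axis) in 3 comparisons, filled where called over all genes, with the median of each list as a red line. The PPARA-responsive genes have a median of -0.45 in FAC against control and of 0.30 and 0.27 in the scavenger groups against FAC, and the lowest droplet surface point in both scavenger panels is Cidea (-2.71 and -1.85).

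The genes closest in pattern to 3 of the 10 were searched among 8997 protein-coding genes with a mean of at least 5 CPM, by the root mean square difference of centred log2 CPM over the 12 libraries. For G0s2 they were Hdhd3 (0.329), Aldh8a1 (0.338) and Rtn4rl1 (0.347). Hdhd3, a predicted hydrolase, stood at 13.3 ± 0.784 CPM in control, 4.20 ± 1.16 CPM with FAC alone, 4.71 ± 0.706 CPM with Lip-1+FAC, and 7.12 ± 0.236 CPM with MT+FAC. Aldh8a1, an aldehyde dehydrogenase, stood in the same order at 63.1 ± 2.43, 10.8 ± 0.250, 25.2 ± 1.56 and 29.4 ± 5.08 CPM. For Plin2 the closest were Efl1 (0.065), Sfmbt1 (0.079) and Hif1a (0.080), and for Pnpla2 they were Srsf11 (0.054), Plod3 (0.056) and Eef2 (0.062). Hif1a, a subunit of the hypoxia-inducible factor, stood at 70.2 ± 4.17, 88.7 ± 5.86, 83.0 ± 2.66 and 74.0 ± 6.01 CPM in that order. The smaller distances of Plin2 and Pnpla2 go with their narrower range over the groups.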

How the data were processed

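Per the labels' protocols, RNA was taken up on columns with DNase digestion, amplified with SMART-Seq v4, made into Nextera XT libraries and sequenced in pairs. Each deposited file gives whole-number counts per gene, not normalised. STAR and GRCm38 are named in the submitters' processing notes, without versions, and the annotation is not given in the sources used here. The unstranded column was used, and 75.8% to 81.2% of the reads listed per library were assigned to genes. The rest stayed out of library sizes.

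Names, coordinates and exon lengths come from GENCODE M21 (GRCm38), which matched 55227 of 55487 identifiers, and promoters from RefSeq. Counts were scaled by TMM, kept by filterByExpr and tested with edgeR 4.0.16 in R 4.3.3 (quasi-likelihood, robust, 4 group means, all 12 libraries, two-sided, Benjamini-Hochberg over 13535 genes). On simulated data (13282 genes, FAC against control, 200 changed by a log2 fold change of 1) it recovered 85.5% of the changed genes. Of its calls 7.07% were false, above the threshold of 0.05. Far fewer genes changed there than the 36.6% called in FAC against control, so the simulation does not give the error rate of that comparison. SE is the size of the fold change over the root of F.

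The 10 genes, the lists and the tests were chosen with earlier results of these data known. The text names all 10, and per comparison and list the called genes with the largest rise and fall among those with a mean of at least 1 CPM, and the 3 nearest genes in pattern. The result of 1 gene that this rule picks is not reported here. Reads carry no molecular identifiers and are not independent molecules. Copies were searched with blastn 2.17.0+. Alternatives are described in the closing section.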

Additional observations from a re-analysis of the deposited data

How the results depend on the processing

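Of 1061 fold changes of the 10 genes under alternatives, 1001 stayed on the same side of the threshold, 23 lost a call, 37 gained one and no called value changed sign. Over these and the other named genes, 34 values not called under either setting changed sign. The alternatives were other scalings (RLE, upper quartile, library size), filters, DESeq2 1.42.0, fewer libraries, summed strand columns, thinning, a replicate block, and offsets for GC content and length. MT+FAC against Lip-1+FAC moved most. Its 182 calls became 477 with no filter, 465 with DESeq2, 312 with only the compared libraries and 74 to 156 with 1 library left out. Its 1 call among the 10 genes became 0 with a mean of at least 5 CPM, where G0s2 was not tested, and 0 to 0 with 1 library left out. Its 3 calls among the other lipid genes became 9 with no filter, 9 with DESeq2, 9 with only the compared libraries, 5 with the strand columns summed and 1 to 2 with 1 library left out. In Lip-1+FAC against control the 5 calls among the 10 became 3 with a mean of at least 5 CPM, where G0s2 and Lipe were not tested. Sar1b against control changed sign with the offsets (0.00 with Lip-1+FAC, 0.04 with MT+FAC), and likewise with the replicate block and offsets together (0.00 and 0.04). The cause was not tested, except where genes left the test. With libraries thinned to the smallest depth, the Lipe call in Lip-1+FAC against control was lost and Plin4 in MT+FAC against control was called, and no other call among the 10 genes changed. Pnpla3 rested on 16 to 61 reads per library.

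The replicate numbers gave no clear sign of pairing the libraries, though weak correlations cannot show that no animal or culture was shared. Over 18 same-number pairs the correlation of deviations from group means was -0.25 to 0.16, with 3 over 0.1, and 4 of 12 libraries correlated best with their own number. With the replicate block 4863 genes were called in FAC against control, 5278 in Lip-1+FAC against FAC, 5488 in MT+FAC against FAC, 193 between the scavengers, 3961 in Lip-1+FAC against control and 2553 in MT+FAC against control. Among the 10 genes it called 5, 4, 5, 1, 5 and 4 in that order. The added call in MT+FAC against FAC was Plin2 (-0.19, adjusted p = 0.0389), and both calls of Cebpb against FAC were lost (-0.91, adjusted p = 0.0568, and -0.92, adjusted p = 0.0527). The block with the offsets ended the call of Hilpda in Lip-1+FAC against control (-0.27, adjusted p = 0.0529).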
